A study of Mus musculus with 12 samples.

Results

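Desmosome genes were followed across 12 RNA-seq libraries of newborn mouse pituitary. The 10 genes were the desmosomal cadherins Dsg2, Dsg3, Dsc2 and Dsc3, the armadillo proteins Jup, Pkp1, Pkp2 and Pkp3, the plakin Dsp and the tetraspan membrane protein Perp. They were found by gene symbol, and all 10 had a row among the 27129 genes of the per-library table. The glands were taken at postnatal day 0 without the posterior lobe. The 6 libraries labelled mutant carried a Cre transgene and the Isl1 genotype Isl1fx/-, a floxed and a null allele. The 6 control libraries carried the same transgene with Isl1+/fx, so the Cre transgene and a floxed allele were shared by all 12 glands, and controls kept an allele without loxP sites. The transgene directs Cre to pituitary progenitors, the source of the endocrine cells of the anterior and intermediate lobes. The series design calls the libraries individual samples.

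Desmosomes are spot junctions that tie the keratin filaments of neighbouring epithelial cells together. Desmogleins and desmocollins span the membrane and bind their partners on the next cell, plakoglobin (Jup) and the plakophilins (Pkp1 to Pkp3) sit on their tails, and desmoplakin (Dsp) links this plaque to keratin. Dsg2, Dsc2 and Pkp2 are found in simple epithelia and in heart muscle, while Dsg3, Dsc3 and Pkp1 are typical of stratified epithelia. Perp is a target of p63 in mouse skin, where it is needed for stable desmosomes.

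Of the 10 genes, Dsp, Pkp1, Dsc3, Dsc2 and Pkp3 were higher in the libraries labelled mutant, and none was lower. Their folds ran from 2.07 for Dsp down to 1.20 for Pkp3. Jup, Pkp2, Dsg2 and Perp did not pass the test, and Dsg3 was too low to be tested in the main fit. Levels are given as CPM, the share of a gene in the TMM-scaled library total, and the test was edgeR's quasi-likelihood test with Benjamini-Hochberg adjustment over all genes tested. A gene was tested where its FPKM (fragments scaled to gene length and library size) reached 1 in at least 6 libraries. Of the 15246 genes tested, 4.30% were called higher and 2.75% lower at an adjusted p under 0.05, beside 5 and 0 of the 9 desmosome genes tested. These were 656 higher and 419 lower genes, and scaling by the library total gave 734 and 282. The median log2 fold change was 0.48 over these 9 genes and -0.0036 over all genes tested. Pkp1 reached the FPKM minimum in 6 libraries labelled mutant and 0 control libraries, so it entered the test through the group where it was high. In a fit with no filter, which tested all 10 genes, 6 were called higher, beside 4.002% of 24285 genes. Glands without the posterior lobe were sequenced as a whole, so more cells with desmosomes and more desmosome RNA per cell cannot be told apart.

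Libraries labelled mutant held 45415453 to 61533576 fragments and control libraries 46204920 to 51535425. Isl1, the targeted gene, was at 59.3 ± 4.98 CPM in libraries labelled mutant and 35.4 ± 3.04 CPM in controls (SD, n = 6 each). This is opposite to a plain loss of its transcripts, and counts that pool all exons cannot tell whether the floxed part was deleted. Every direction below therefore follows the labels, mutant over control. Endocrine genes marked the tissue as anterior pituitary in all libraries, with Gh at 38933 to 44291 CPM in libraries labelled mutant and 39314 to 54859 CPM in controls. The labels do not give a batch.

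Promoter sequence was at hand for Dsp, which had the highest fold of the 9 genes tested in the main fit, and for Jup, the most abundant of the 10 genes, which did not pass the test. The 250 bases before the transcript start used by the RefSeq promoter table (build GRCm38.p6) are given 5′ to 3′ on the gene's strand, for Dsp at chr13:38151044-38151293 on the plus strand and for Jup at chr11:100397791-100398040 on the minus strand. The RefSeq gene record of Jup reaches to 100397839, so the last bases of its window, with a GC box, lie inside that record. Capitals mark matches to GGGCGG or its reverse complement CCGCCC, a GC box.
Dsp: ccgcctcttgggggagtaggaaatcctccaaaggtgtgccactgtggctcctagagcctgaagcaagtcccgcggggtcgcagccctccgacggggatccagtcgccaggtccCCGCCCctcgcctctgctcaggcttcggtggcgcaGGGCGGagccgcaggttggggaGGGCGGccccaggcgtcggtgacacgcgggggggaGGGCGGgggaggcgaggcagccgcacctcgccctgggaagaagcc
Jup: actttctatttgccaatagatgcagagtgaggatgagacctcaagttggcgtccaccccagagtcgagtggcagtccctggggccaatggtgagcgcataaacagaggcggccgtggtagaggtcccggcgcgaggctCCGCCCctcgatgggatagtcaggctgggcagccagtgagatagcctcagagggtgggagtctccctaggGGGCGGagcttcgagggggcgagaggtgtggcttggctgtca
The Dsp window held 4 GC boxes and the Jup window 2, and 32.7% of 32851 RefSeq promoter windows of this length held at least 1. Neither window held the Grainyhead motif AACCNGTT (1.79% of windows), the AP-1 motif TGANTCA (6.75%) or the homeodomain core TAATTA (4.84%), searched on both strands. GC content of the Dsp window was 72.4%, and 94.0% of the windows had as much or less.

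Desmocollins, whose tails anchor plakoglobin, were higher in the libraries labelled mutant. Dsc3 (chromosome 18, 19960930 to 20002097, mm10) had 9.73, 10.5 and 12.05 CPM as lowest, median and highest in libraries labelled mutant, against 4.77, 5.85 and 6.76 CPM in controls. The groups did not overlap. The log2 fold change was 0.87 (standard error 0.0835, edgeR adjusted p = 1.88e-05). Dsc2 (chromosome 18, 20030798 to 20059505), the more widely expressed desmocollin, had 39.9, 41.2 and 49.9 CPM in libraries labelled mutant, against 26.5, 29.0 and 31.7 CPM in controls. These groups did not overlap either, and mutant 0 stood above the other libraries labelled mutant. Its log2 fold change was 0.54 (standard error 0.0600, edgeR adjusted p = 6.68e-05). Full separation with higher values in the libraries labelled mutant held for 2.91% of all genes tested, and among desmosome genes for the 5 that were called.

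Desmogleins differed from each other. Dsg2, the widespread desmoglein, had 23.8, 25.4 and 31.2 CPM in libraries labelled mutant, against 22.6, 24.8 and 27.4 CPM in controls. The groups overlapped, and the log2 fold change of 0.07 had a 95% interval from -0.07 to 0.22 (edgeR adjusted p = 0.569). The interval given for Dsg2 (chromosome 18, 20558116 to 20674326) runs past the RefSeq end of the gene at 20604526 and also takes in Gm16090, at 60.2 ± 8.56 CPM in libraries labelled mutant and 57.3 ± 11.6 CPM in controls (SD, n = 6 each), and Ttr. The library kit kept no strand, so fragments of overlapping genes cannot be assigned with certainty. Dsg3, the desmoglein of deep epidermal and mucosal layers, was near the limit of detection. It had 7 to 22 fragments per library labelled mutant, against 1 to 7 fragments per control library, and control 3 and mutant 2 and 5 met at 7. The fit with no filter gave a log2 fold change of 2.03 (standard error 0.462, edgeR adjusted p = 0.0164). In levels this was 0.298 ± 0.163 CPM in libraries labelled mutant and 0.0696 ± 0.0419 CPM in controls (SD, n = 6 each).

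**Figure D1:**
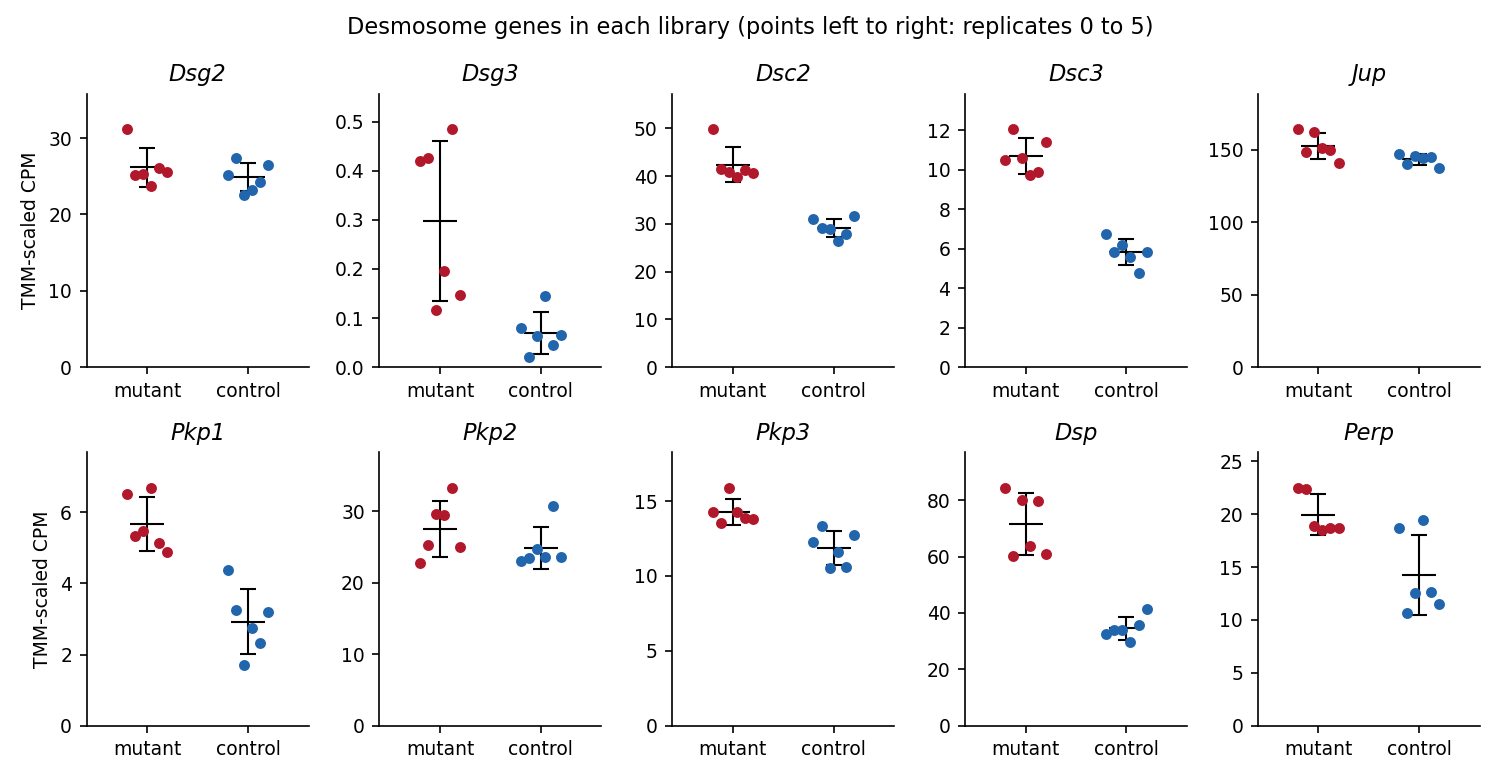
TMM-scaled CPM of the 10 desmosome genes, with a panel per gene and its own axis from 0; points are libraries (6 labelled mutant on the left, 6 control on the right) and black bars the mean ± SD. Dsp, Dsc2, Dsc3, Pkp1 and Pkp3 have no overlap between the groups, and for Perp control 0 and control 3 lie among the libraries labelled mutant.

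Dsp, which fastens keratin to the plaque, had the highest fold of the tested desmosome genes. The gene (chromosome 13, 38151294 to 38198577) had 60.3, 71.7 and 84.5 CPM in libraries labelled mutant, against 29.6, 33.9 and 41.4 CPM in controls. Every library labelled mutant lay above every control. Among libraries labelled mutant, mutant 1, 3 and 5 had 60.3 to 63.6 CPM and mutant 0, 2 and 4 had 79.9 to 84.5 CPM. In FPKM this split did not hold for mutant 0, at 7.39. It lay between 6.17 to 6.51 in mutant 1, 3 and 5 and 8.14 to 8.16 in mutant 2 and 4. The log2 fold change was 1.05 (standard error 0.101, edgeR adjusted p = 1.9e-05), and 160 of the 15246 genes tested had a larger one.

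Plakophilins, which cluster desmoplakin at the membrane, moved by different amounts. Pkp1 (chromosome 1, 135871395 to 135919024), the plakophilin of stratified epithelia, had 4.88, 5.41 and 6.69 CPM in libraries labelled mutant, against 1.69, 2.96 and 4.37 CPM in controls. The groups did not overlap, with control 0 the highest control. Its log2 fold change was 0.95 (standard error 0.180, edgeR adjusted p = 0.00544). Without the 3 libraries with high Xist, the RNA of the inactive X (mutant 0, mutant 3 and control 4; chosen after seeing the data), the value was 0.78 and the call was lost (edgeR adjusted p = 0.0746). Pkp3 (chromosome 7, 141078229 to 141090510), present in most epithelia, had 13.6, 14.1 and 15.9 CPM in libraries labelled mutant, against 10.5, 11.9 and 13.3 CPM in controls. The highest control, at 13.3 CPM, lay just under the lowest library labelled mutant. The log2 fold change was 0.27 (standard error 0.0673, edgeR adjusted p = 0.0291). This call was lost without mutant 2 (edgeR adjusted p = 0.0609), control 3 (0.0522) or control 4 (0.0641), and with limma on log2(FPKM + 1) (adjusted p = 0.0673). Pkp2 (chromosome 16, 16213345 to 16272712), the plakophilin of simple epithelia and heart, had 22.8, 27.3 and 33.3 CPM in libraries labelled mutant, against 23.0, 23.6 and 30.8 CPM in controls. The groups overlapped, and the log2 fold change of 0.15 had a 95% interval from -0.06 to 0.35 (edgeR adjusted p = 0.394).

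Jup (chromosome 11, 100368856 to 100397790) encodes plakoglobin, a relative of beta-catenin that serves both desmosomes and adherens junctions. It had 140, 150 and 164 CPM in libraries labelled mutant, against 137, 144 and 147 CPM in controls. The groups overlapped and the log2 fold change of 0.09 had a 95% interval from 0.01 to 0.17, which did not pass over all genes (edgeR adjusted p = 0.171). Its FPKM relative to that of Ctnnb1, the gene of beta-catenin, was 0.108 ± 0.00764 in libraries labelled mutant and 0.105 ± 0.00356 in controls (SD, n = 6 each).

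Perp (chromosome 10, 18845071 to 18857072) varied widely among controls, with a coefficient of variation of 9.71% in libraries labelled mutant and 26.8% in controls. It had 18.5, 18.8 and 22.5 CPM in libraries labelled mutant, against 10.6, 12.6 and 19.4 CPM in controls. Control 0 and control 3, at 18.7 and 19.4 CPM, lay within the range of the libraries labelled mutant, and the other 4 controls lay between 10.6 and 12.6 CPM. The log2 fold change was 0.48 (standard error 0.143, edgeR adjusted p = 0.06). Without control 0 it was 0.58 (edgeR adjusted p = 0.0245), and without control 3 it was 0.60 (0.0169). DESeq2 called Perp (adjusted p = 0.0128) and so gave 6 higher desmosome genes, beside 6.13% of all genes. The controls with much Perp did not stand apart in Dsp, with 32.6 CPM in control 0 and 29.6 CPM in control 3.

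**Figure D2:**
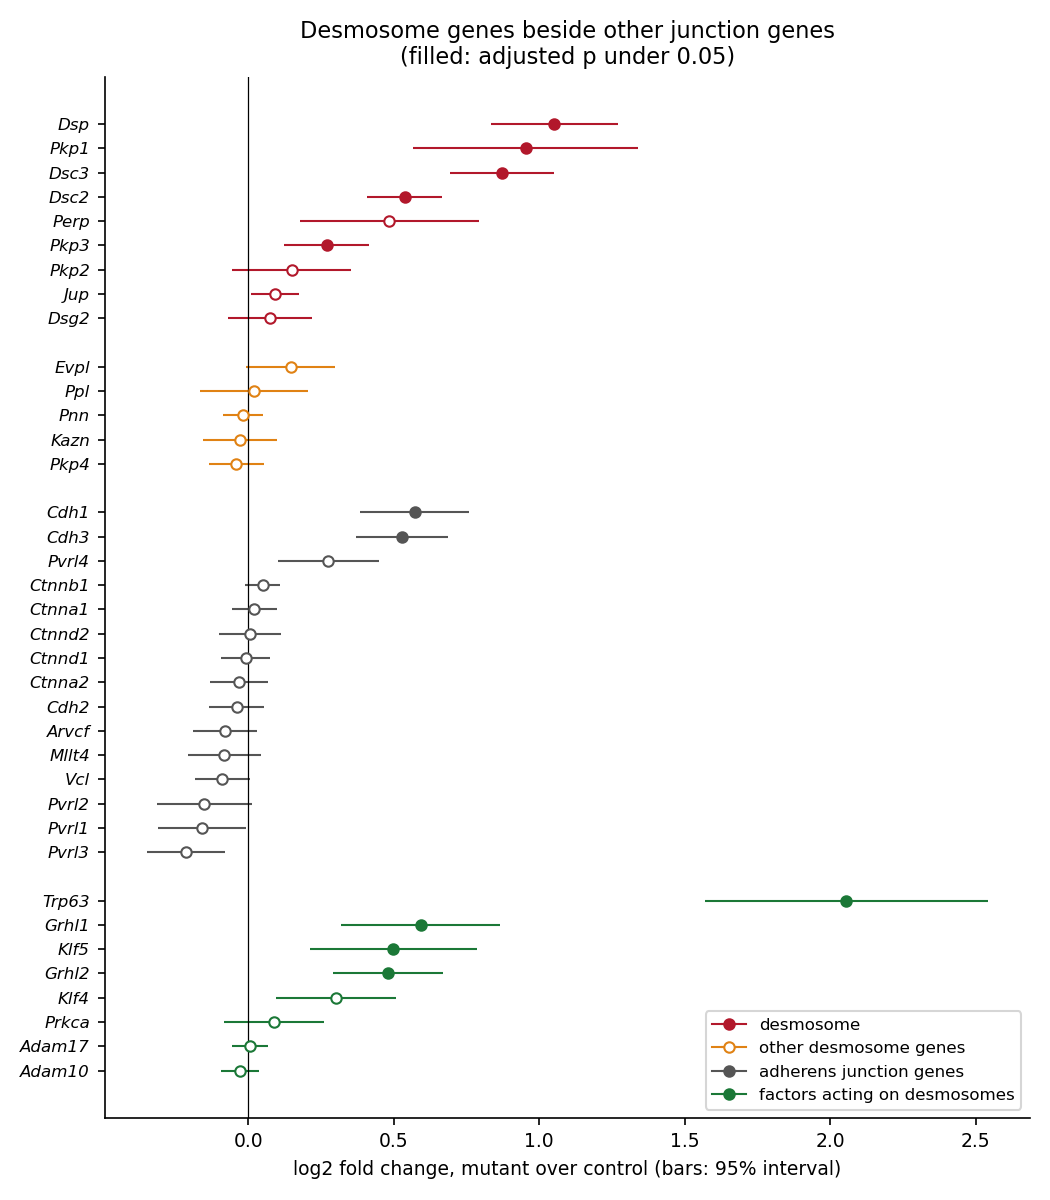
Log2 fold change, libraries labelled mutant over control, with 95% intervals from edgeR (n = 6 each) for tested desmosome genes, other desmosome genes, adherens junction genes and 8 of the 9 tested factors that act on desmosomes; filled points have an adjusted p under 0.05. Dsp at 1.05 leads the desmosome genes, Cdh1 and Cdh3 are the filled adherens junction genes, and Trp63 at 2.06 lies farthest to the right.

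Per length, in the authors' FPKM, Jup was the most abundant of the 10 genes in both groups, at 30.1 ± 1.37 FPKM in libraries labelled mutant and 28.4 ± 0.595 FPKM in controls (SD, n = 6 each). Perp, Dsc2 and Pkp2 followed in both groups. They averaged 11.6, 9.85 and 9.73 FPKM in libraries labelled mutant and 8.34, 6.75 and 8.78 FPKM in controls, and single libraries put these neighbours in different orders. Dsp held a different place in the order of each group, above Pkp3 and Dsg2 in libraries labelled mutant and below them in controls. It averaged 7.10 ± 0.917 FPKM in libraries labelled mutant and 3.45 ± 0.499 FPKM in controls, where Dsg2 was at 4.55 and 4.32 FPKM and Pkp3 at 5.11 and 4.27 FPKM. Dsp exceeded both Dsg2 and Pkp3 in 6 of 6 libraries labelled mutant and in 0 of 6 controls. Dsc3 (2.03 and 1.10 FPKM), Pkp1 (1.25 and 0.643 FPKM) and Dsg3 (0.0737 and 0.0171 FPKM) stayed the lowest, in this order. In mutant 0 and control 0 the ratio of FPKM to counts varied between genes more than elsewhere. Leaving both out put Pkp2 (10.2 FPKM) above Dsc2 (9.32 FPKM) in libraries labelled mutant, and the rest of the order held in both groups.

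**Figure D3:**
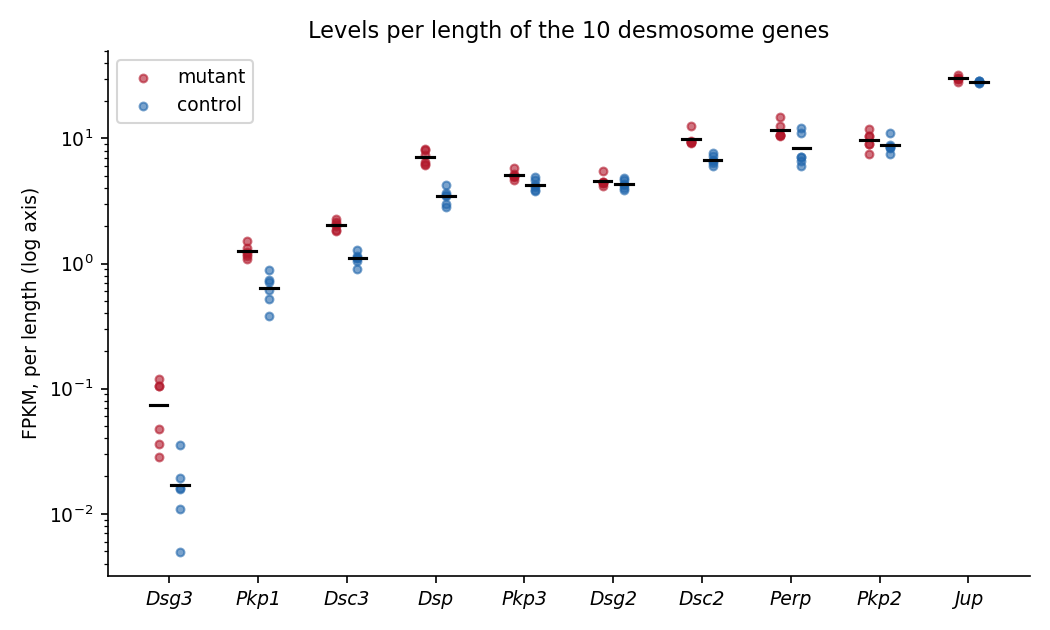
FPKM of the 10 desmosome genes on a log axis, ordered by their mean in controls; points are libraries (labelled mutant left, control right, 6 each) and bars the means. Dsp averages 7.10 FPKM in libraries labelled mutant and 3.45 FPKM in controls, passing Pkp3 and Dsg2, while Jup stays on top and Dsg3 at the bottom.

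Ratios between paralogs were compared within each library, where scaling between libraries drops out. In 3 of them the first gene is typical of stratified epithelia, and the other sets Pkp3 against Pkp2. The 4 ratios were tested with exact two-sided permutation tests (924 arrangements of the labels). The log2 ratio of Dsc3 to Dsc2 was -1.99 ± 0.168 in libraries labelled mutant and -2.33 ± 0.139 in controls (SD, n = 6 each), a difference of 0.34 (exact p = 0.00866, adjusted over 4 ratios 0.0115). Mutant 0, at -2.25, lay within the range of the controls. The log2 ratio of Pkp1 to Pkp2 was -2.28 ± 0.300 in libraries labelled mutant and -3.14 ± 0.558 in controls, a difference of 0.86 (exact p = 0.00649, adjusted 0.0115). Here the groups overlapped, with a lowest value of -2.70 in libraries labelled mutant and a highest of -2.40 in controls. The log2 ratio of Dsg3 to Dsg2 was -6.60 ± 0.810 in libraries labelled mutant and -8.44 ± 0.851 in controls, a difference of 1.84 that rests on few Dsg3 fragments (exact p = 0.00649, adjusted 0.0115). That difference was 1.02 with 5 fragments added (exact p = 0.00866) and 0.47 on log2(FPKM + 0.1) (exact p = 0.013). For Dsg3 to Dsg2 the groups also overlapped, with a lowest value of -7.66 in libraries labelled mutant and a highest of -7.24 in controls. The ratio of Pkp3 to Pkp2 did not pass, at -0.94 ± 0.200 in libraries labelled mutant and -1.07 ± 0.272 in controls (exact p = 0.403).

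**Figure D4:**
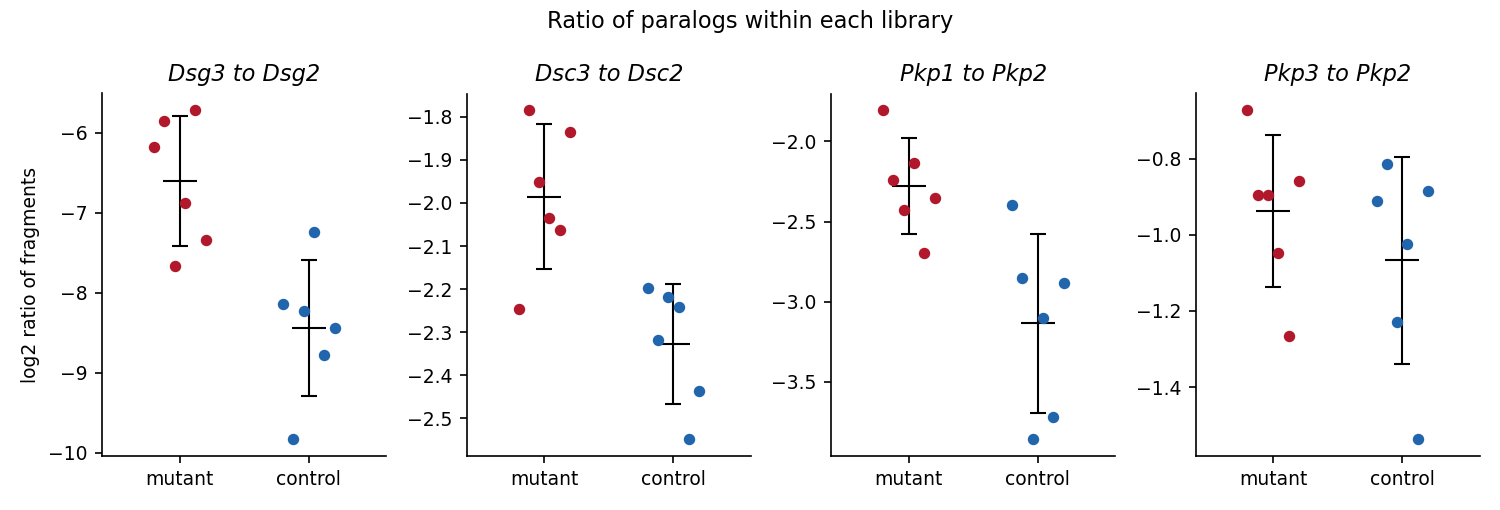
Log2 ratio of fragments of paired desmosome genes within each library, with points left to right for replicates 0 to 5 (labelled mutant left, control right) and black bars for the mean ± SD of 6. The first 3 panels are higher on average in libraries labelled mutant, by 1.84, 0.34 and 0.86, but the groups overlap in part in each. The Pkp3 to Pkp2 panel overlaps broadly.

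By FPKM within each family, Dsc3 made up 17.2% ± 1.86 of the desmocollin level in libraries labelled mutant and 14.03% ± 1.04 in controls (SD, n = 6 each). Pkp1 made up 7.85% ± 1.28 of the plakophilin level in libraries labelled mutant and 4.73% ± 1.49 in controls. Pkp2 was the main plakophilin in both, at 60.2% ± 3.34 in libraries labelled mutant and 64.0% ± 4.68 in controls. Dsp took 8.70% ± 0.869 of the summed FPKM of the 10 genes in libraries labelled mutant and 5.24% ± 0.837 in controls.

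Other desmosome genes did not pass the test. Of 11 genes, 5 were tested, 0 were called by edgeR and 0 had an unadjusted p under 0.05, with a median log2 fold change of -0.02. Over all genes tested, 4.30% were called higher and 2.75% lower. Periplakin (Ppl) and envoplakin (Evpl), plakins of stratified epithelia, had log2 fold changes of 0.02 and 0.15 (edgeR adjusted p = 0.928 and 0.251), and Pkp4, a p120 catenin relative, had -0.04 (0.638). The other 6 genes, among them the Dsg1 paralogs of upper epidermis, had at most 0.672 CPM in any library. The Dsg1 paralogs are close copies, and how shared reads were split among them is not known.

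Adherens junctions, which tie cells through actin, share plakoglobin with desmosomes. Of 15 genes tested, 2 were higher and 0 lower, beside 4.30% and 2.75% of all genes tested, with a median log2 fold change of -0.03. The epithelial cadherin Cdh1 was at 134 ± 17.3 CPM in libraries labelled mutant and 90.5 ± 10.4 CPM in controls (SD, n = 6 each; log2 fold change 0.57, edgeR adjusted p = 0.0011). Cdh3, the placental cadherin found in basal epithelial cells, was at 10.7 ± 1.22 CPM in libraries labelled mutant and 7.44 ± 0.297 CPM in controls (0.53, edgeR adjusted p = 0.000462). The neural cadherin Cdh2 and the catenins Ctnnb1 and Ctnna1 had log2 fold changes of -0.04, 0.05 and 0.02, and none passed.

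Factors known to act on desmosomes were higher in 4 of 9 tested genes and lower in 0, beside 4.30% and 2.75% of all genes tested. Trp63 reached the FPKM minimum in 0 control libraries. The fit with no filter called 5 of 13 higher, beside 4.002% of all genes in that fit, and 0 lower. Trp63, which encodes p63, the regulator of basal epithelial cells, was at 8.67 ± 2.57 CPM in libraries labelled mutant and 2.08 ± 0.640 CPM in controls (SD, n = 6 each; log2 fold change 2.06, edgeR adjusted p = 5.61e-05). The Grainyhead factors Grhl1, an activator of Dsg1 in mouse skin, and Grhl2 rose by 0.59 and 0.48 on the log2 scale (edgeR adjusted p = 0.0129 and 0.00452). The Krüppel-like factor Klf5 rose by 0.50 (0.039). Klf4 and Prkca, a kinase that loosens desmosomal adhesion, had log2 fold changes of 0.30 and 0.09 and did not pass.

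Many markers of epithelia were also higher in the libraries labelled mutant. Several of them reached the FPKM minimum in 0 control libraries and so entered the main test only through the libraries labelled mutant, so counts from the fit with no filter are given for the lists they belong to. Over all genes, the main fit called 4.30% of 15246 higher and 2.75% lower, and the fit with no filter called 4.002% of 24285 higher. In that fit, all 6 basal markers of stratified epithelium were higher (summed level 58.3 to 125 CPM in libraries labelled mutant and 20.8 to 28.9 CPM in controls), with Krt15, Itgb4, Col17a1 and Krt5 the most abundant in libraries labelled mutant and Col17a1 and Itgb4 in controls. Krt5 and Trp63 were among those that entered in this way. The list of simple epithelium holds Cdh1, which also stands among the adherens junction genes. Krt5 was at 7.76 to 21.0 CPM in libraries labelled mutant and 0.0802 to 1.32 CPM in controls. Markers of simple epithelium were higher in 5 of 6 genes (805 to 904 CPM in libraries labelled mutant and 588 to 701 CPM in controls), with Epcam at a log2 fold change of 0.11 (edgeR adjusted p = 0.135). With no filter, 6 of 6 markers of multiciliated cells were higher, and 3 of the 5 in the main test had entered only through the libraries labelled mutant (list sum 61.3 to 144 CPM in libraries labelled mutant and 23.3 to 27.3 CPM in controls). Of 8 upper-layer markers, 5 were higher with no filter and 2 of 4 in the main test, of which Ly6d had entered only through the libraries labelled mutant (list sum 25.9 to 39.96 CPM in libraries labelled mutant and 10.2 to 14.2 CPM in controls), while Krt10 and Krt1 had log2 fold changes of -0.07 and 0.00. The list of nasal, oral and airway epithelium had 4 of 8 higher genes with no filter and 1 of 2 in the main test, Ltf, which had entered only through the libraries labelled mutant (list sum 42.6 to 103 CPM in libraries labelled mutant and 13.995 to 17.1 CPM in controls). Its most abundant gene in the libraries labelled mutant, the mucin Muc5b, missed the filter at 25.3 CPM on average, against 0.534 CPM in controls. The mesothelium list had 1 gene tested, Msln, which was higher, while Upk3b, Lrrn4 and Wt1 had at most 0.406 CPM in any library (list sum 16.7 to 33.5 CPM in libraries labelled mutant and 1.29 to 3.24 CPM in controls). Their part in the desmosome result was not tested. The summed level of cardiac and skeletal muscle markers was 7.13 to 9.72 CPM in libraries labelled mutant and 6.15 to 8.07 CPM in controls, and 0 of 7 reached the filter. With no filter 1 of them was higher, the cardiac troponin gene Tnnt2, at 0.764 ± 0.237 CPM in libraries labelled mutant and 0.363 ± 0.0684 CPM in controls (SD, n = 6 each; log2 fold change 1.06, edgeR adjusted p = 0.00719). Pituitary stem cell markers had 1 higher gene of 4, Sox2 (list sum 160.2 to 178 CPM in libraries labelled mutant and 134 to 160 CPM in controls). Endothelial and posterior lobe lists had 0 called genes of 3 tested each, with 0 at an unadjusted p under 0.05. The posterior lobe list, mostly Col25a1, summed to 160 to 204 CPM in libraries labelled mutant and 151 to 212 CPM in controls. The leukocyte list had 1 higher gene of 4, Lyz2 (list sum 19.9 to 28.9 CPM in libraries labelled mutant and 15.3 to 18.8 CPM in controls). Lyz2 alone averaged 13.5 CPM in libraries labelled mutant and 5.65 CPM in controls. Ptprc, Aif1 and Cd68 had log2 fold changes of -0.14, -0.14 and -0.06 and did not pass. The endocrine list had 2 lower genes of 6, Cga and Tshb.

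**Figure D5:**
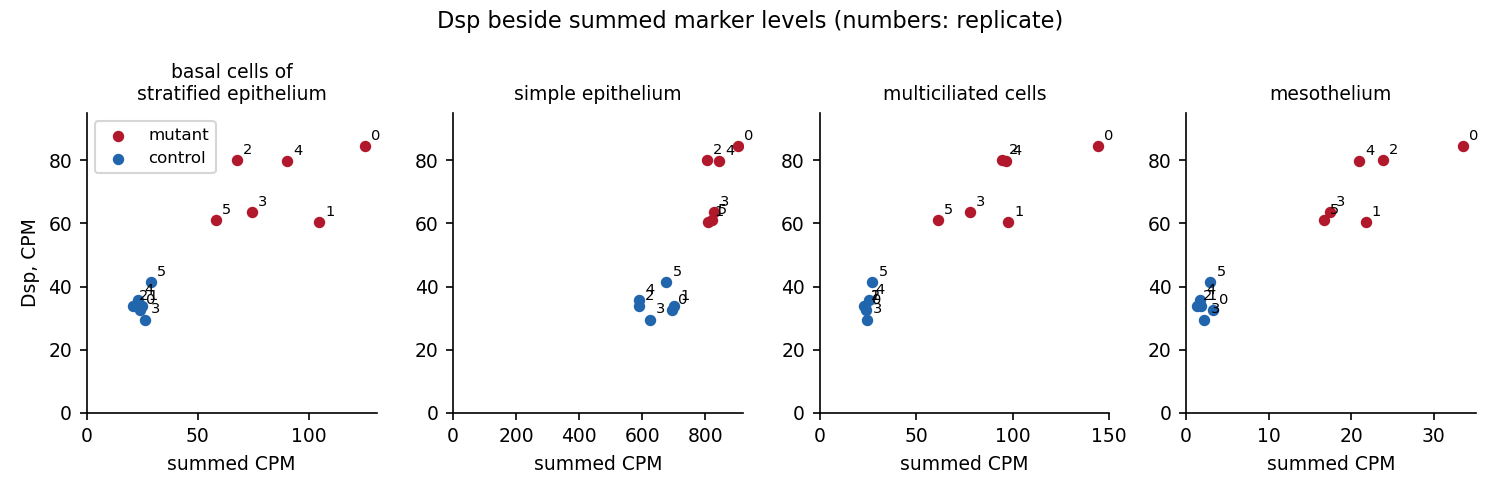
CPM of Dsp in each library against the summed CPM of 4 marker lists (one panel each; numbers are replicates, red labelled mutant, blue control). The groups are separate on both axes in every panel, and mutant 0, at 84.5 CPM of Dsp, has the highest marker sum in all 4. The Dsp axis repeats the same values in each panel, and the mesothelium sum is mostly Msln. The panels show 4 of 12 marker lists. Of those not drawn, the endothelium sum overlaps between the groups (391 to 436 CPM labelled mutant, 390 to 493 CPM control). The posterior lobe, muscle and endocrine sums overlap too. The upper-layer, airway, leukocyte and pituitary stem cell sums do not. For stem cells the gap is narrow, with 160.2 CPM lowest labelled mutant and 159.8 CPM highest control.

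Libraries labelled mutant did not rank alike for every desmosome gene. By CPM, mutant 0 was the highest of the 6 for 5 genes, Dsg2, Dsc2, Dsp, Jup and Perp, and the lowest for Pkp2. In FPKM, mutant 2 exceeded mutant 0 for Dsp (8.16 against 7.39) and Jup (32.3 against 30.5). Mutant 3 was the lowest for 4 genes and the highest for Pkp1. Among controls, control 0 was the highest by CPM for 3 genes, Dsc3, Pkp1 and Jup. In FPKM, Jup was at 27.9 in control 0 and 29.0 in control 4. Mutant 0 and control 0 are the libraries where the ratio of FPKM to counts varied more between genes. The coefficient of variation was 5.89% for Jup in libraries labelled mutant and 2.60% in controls, against 54.6% in libraries labelled mutant and 60.2% in controls for Dsg3.

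Profiles over the 12 libraries, scaled to mean 0 and SD 1 on the log2 CPM scale, were compared by their root mean square difference. The nearest to Dsp were 6820408C15Rik (0.179), Ascl3 (0.209), a transcription factor gene of ionocytes, and Vwa3a (0.241), and the nearest desmosome gene was Dsc2, which ranked 32 of 15245. The nearest to Dsc3 were E030002O03Rik (0.258), 1600029D21Rik (0.269) and Lrrc26 (0.281), with Dsc2 at rank 58. All 6 of these neighbours were higher in the libraries labelled mutant with no overlap between groups, so the likeness includes the difference between groups. The nearest to Perp were Anpep (0.208), Arpc1b (0.229), an actin-nucleating subunit, and Necap2 (0.310), all with overlapping groups, and the nearest desmosome gene was Dsc3 at rank 322.

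In the authors' deposited table, Dsp, Pkp1 and Dsc3 were marked as changed (Cuffdiff q = 0.0012 each, folds 2.06, 1.94 and 1.84). Dsc2 and Perp had the same q in the authors' deposited table but folds of 1.46 and 1.40, under the authors' minimum of 1.5. Pkp3 had q = 0.122 in the authors' deposited table. The authors' transcript table held 11 transcripts of the 10 genes, a single one for 9 of them. Of Pkp3, the authors' deposited table put 5.09 FPKM in the mutant group and 4.23 FPKM in controls on its main transcript, and at most 0.0323 FPKM on the other.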

How the data were processed

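The genes and lists were chosen with earlier results of these data known. Per the labels' protocols, the TruSeq RNA Library Prep Kit v2 was used. The submitters' processing notes name build mm10 and the tools Cuffdiff 2.1.1, Cufflinks, TopHat2 2.0.9, Bowtie2 2.1.0 and FastQC 0.10.1. The deposited table holds the authors' estimated counts of fragments and FPKM per library, per the file headers. Another 12 columns, of rescaled fragments, stayed out. The authors' deposited comparison tables give FPKM, a log2 fold change and a q-value (a p-value after adjustment) per gene and transcript, and they mark genes with a fold of at least 1.5. The enrichment table was not used. Starts were counted from 0 in the files and are given from 1.

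Samples were grouped by genotype. Estimated counts, 89.99% to 90.41% exactly whole among non-zero values, were rounded and tested with edgeR 4.0.16 (R 4.3.3), TMM scaling and no covariate, and adjusted p under 0.05. The FPKM minimum of 1 in 6 libraries left 15246 of 27129 genes. Standard errors were derived from the fold and the F statistic. Ratios used fragments with 0.5 added. Alternatives were limma 3.58.1, DESeq2 1.42.0, other scalings and filters, a Y-linked covariate, a replicate block and leaving out libraries. Libraries of the same group differed beyond counting error (chi-square over degrees of freedom, 14.5 to 37.0). Nothing in the labels says that libraries came from separate litters, so the p-values cover the spread among libraries, which may be technical. Text names all 10 genes, of each junction or factor list all called genes and at most 3 others, of each marker list at most 4, and the 3 nearest profiles to Dsp, Dsc3 and Perp. The driver of the Cre transgene and 1 gene of the factor list are not reported here. Figures were drawn with matplotlib 3.10.9.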

Additional observations from a re-analysis of the deposited data

Results flagged for a closer look

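In 4 of the 20 groups of 6 libraries looked at (10 genes in both groups), a single library stood far from the others. Chance flags about 1 in 20 such groups if they are independent and normally distributed. These groups reuse the same 12 libraries, so the count cannot be read as an excess over chance. Mutant 0 held 49.9 CPM of Dsc2, against 39.9 to 41.5 CPM in the other libraries labelled mutant, and 31.2 CPM of Dsg2, against 23.8 to 26.0 CPM. Mutant 2 held 15.9 CPM of Pkp3, against 13.6 to 14.3 CPM in the other libraries labelled mutant. Control 4 held 30.8 CPM of Pkp2, against 23.0 to 24.7 CPM in the other controls.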

How the results depend on the processing

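Over 23 alternatives, Dsp (log2 fold change 0.86 to 1.11), Dsc3 (0.53 to 0.93) and Dsc2 (0.48 to 0.56) stayed called, and Jup, Pkp2 and Dsg2 stayed not called. Pkp3 lost its call in 9 (adjusted p up to 0.144) and Perp gained one in 6. With a library left out, 4 to 6 desmosome genes were called higher and 0 lower. Over all genes, 485 to 694 were then called higher and 197 to 443 lower (656 and 419 with all libraries). Lower calls were fewer by over 1.5 times without mutant 1, 2, 3 or 4 or control 1, 3 or 4. Lower genes numbered 807 with DESeq2, 216 and 214 with limma at pseudocounts of 1 and 0.1. Without the 3 libraries with high Xist, chosen after seeing the data, 379 genes were higher, 144 lower and 3 desmosome genes higher (Dsp, Dsc3 and Dsc2). The cause was not tested. On log2(FPKM + 1), Dsc3 and Pkp1 had 0.53 and 0.46, since a pseudocount shrinks low genes.

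Replicate numbers did not pair the libraries throughout: 2 of 6 same-number pairs had correlated deviations over 0.1 (0.442 for replicate 2 and 0.185 for replicate 0). Of the 6 libraries labelled mutant, 1 was closest to its own number, mutant 2. Pairing of part of the libraries therefore stays possible. The replicate block gave 672 higher and 401 lower genes and 5 desmosome genes, with Perp called (edgeR adjusted p = 0.0469) and Pkp3 not (0.0692). For the ratios, the block differences were 1.84 for Dsg3 to Dsg2, 0.86 for Pkp1 to Pkp2 (exact p = 0.0312 each, adjusted 0.0625) and 0.34 for Dsc3 to Dsc2 (adjusted 0.0833), where 0.0312 is the smallest p that 6 pairs allow. With a library left out, the differences ran from 1.56 to 2.08, 0.71 to 1.01, 0.30 to 0.39 and, for Pkp3 to Pkp2, 0.03 to 0.19. At 1 to 22 fragments per library, depth limits Dsg3.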
